A study of Mus musculus with 8 samples.

Results

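The Nrf2 antioxidant response genes described here are 10 genes chosen by name: *Nfe2l2*, *Keap1*, *Gclc*, *Gclm*, *Txnrd1*, *Srxn1*, *Nqo1*, *Gsta4*, *Hmox1* and *Osgin1*. The genes were selected by symbol, with no threshold on a measured value, but the list was drawn up with earlier results of these data known. All 10 were found among the 55291 genes of the count table, and all 10 were among the 19470 genes with enough counts to be tested. None of the 10 transcripts passed the test between mice with and without *Ager* deletion, and 9 of the 10 differed by less than 0.12 on the log2 scale. *Osgin1* was the exception in size, at 2.24 ± 0.45 CPM in deleted mice and 3.07 ± 0.18 CPM in controls (SD, n = 4 each), and it did not pass after adjustment over all tested genes.

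RNA was sequenced from the lumbar spinal cord of 8 male mice, labelled as strain C57BL/6 and bred by the protocol on C57BL/6J, each listed at 120 days of age. Every mouse carried the SOD1G93A transgene, which encodes a mutant human superoxide dismutase and gives a model of amyotrophic lateral sclerosis (ALS), and every mouse was Cx3cr1 Cre/+, so that a tamoxifen-inducible Cre replaced 1 copy of *Cx3cr1* in controls as well. Animals E1776, E5231, E5248 and E5568, the 4 Ager-deleted mice, were Ager fl/fl, and E5386, E5642, E6578 and E6732, the 4 Cre control mice, were Ager +/+. Both groups received 5 daily injections of 0.2 µg tamoxifen at 3 months and were killed at 4 months by the labels, whereas the study's text calls the sequenced tissue end-stage. *Ager* encodes RAGE, a cell surface receptor that binds advanced glycation end products, and the comparison asked what its loss from Cx3cr1-expressing cells, chiefly microglia, did to RNA of the whole cord. In such bulk tissue, fewer cells of a type and less RNA per cell cannot be told apart, and a change confined to microglia is diluted by RNA of all other cells.

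Nrf2 is a basic leucine zipper transcription factor that is held at a low level in unstressed cells by Keap1, an adaptor that hands it to a cullin 3 ubiquitin ligase. Oxidants and electrophiles modify cysteines of Keap1, Nrf2 then escapes degradation, enters the nucleus with a small Maf protein and binds antioxidant response elements near genes for glutathione synthesis, thioredoxin recycling, detoxification and haem breakdown. Because the main control of Nrf2 is on its protein, mRNA of its targets is the usual readout of the pathway in transcript data. In the spinal cord, astrocytes are known for a strong Nrf2 response.

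Sequences of the antioxidant response element core were printed to show where the letters of this factor's motif lay beside the genes measured. The core TGACNNNGC was searched on both strands in windows of 300 bases, 250 before and 50 after each start site, from RefSeq on GRCm38.p6. Of the 10 genes, 7 were found in that table, with 9 windows. The core was present in 4 of these 9 windows, belonging to *Nfe2l2*, *Gclm*, *Srxn1* and *Txnrd1*, and in 4071 of all 32851 windows (12.4%). No match overlapped the related AP-1 motif TGANTCA. Capitals mark the core in each sequence, written 5′ to 3′ on the strand of the gene, and where the match was on the opposite strand the capitals hold its reverse complement.
Nfe2l2: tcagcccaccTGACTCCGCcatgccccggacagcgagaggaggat
Gclm: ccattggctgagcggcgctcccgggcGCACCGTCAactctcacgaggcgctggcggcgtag
Srxn1: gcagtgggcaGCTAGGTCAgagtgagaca
Txnrd1: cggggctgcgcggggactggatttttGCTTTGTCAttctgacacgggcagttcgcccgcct

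The *Nfe2l2* sequence lies on the minus strand at chr2:75704869-75704913, with the match beginning at position -240 from a RefSeq start that is not a start in GENCODE M21. The *Gclm* sequence lies on the plus strand at chr3:122245397-122245457, upstream of the gene, with its match at -134 on the opposite strand. For *Srxn1* the sequence lies on the plus strand at chr2:152105542-152105570, within the transcript, with its match at 28 after the start on the opposite strand. Among the 3 windows of *Txnrd1*, the match was in the one before a start inside the annotated gene, at chr10:82859088-82859148 on the plus strand, and began at -92 on the opposite strand. The windows of *Keap1*, *Nqo1* and *Osgin1* and the other windows of *Txnrd1* did not hold these letters, which says nothing of elements elsewhere.

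Levels are given as CPM, read pair counts per 1000000 counts of the library, scaled by trimmed mean of M values (TMM) factors, in the order of mice above, and fold changes as log2 of Ager-deleted over Cre control with the standard error (SE) and 95% confidence interval of edgeR's quasi-likelihood fit. A gene was called where the adjusted p of edgeR's exact test, Benjamini-Hochberg over all 19470 genes, was under 0.05. Total counts ran from 31148047 to 40324897 per mouse, so that 3 counts were worth at most 0.0975 CPM, and 9 of the 10 genes had 560 counts or more in every mouse. *Osgin1* had 63 to 122 counts per mouse. The floor of 3 counts covers counting error only, whereas the quasi-likelihood intervals also hold variation between mice. *Ager*, the deleted gene, stood at 0.889, 1.51, 1.02 and 1.34 CPM in deleted mice and at 1.53, 2.22, 2.18 and 2.41 CPM in controls. It was lower in each deleted mouse than in any control, at a log2 fold change of -0.81 (SE 0.22), but was not called (adjusted p = 0.252 by edgeR's exact test).

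*Nfe2l2* (chr2:75675513-75704641, minus strand, GRCm38) encodes Nrf2 itself. Its level was 83.9, 82.1, 64.5 and 74.3 CPM in the deleted mice and 76.9, 89.0, 65.4 and 79.7 CPM in the controls. The lowest mouse of each genotype, E5248 and E6578, had nearly the same value, and the ranges overlapped almost completely. The log2 fold change was -0.029 (SE 0.11, interval -0.26 to 0.21), with an adjusted p of 1 by edgeR's exact test. *Keap1* (chr9:21229730-21239361, minus strand), the repressor, was measured at 58.7, 57.3, 50.6 and 57.7 CPM with deletion and 53.8, 55.8, 57.1 and 52.6 CPM without. Deleted mouse E5248 was again lowest and the other deleted mice sat just above the highest control. Its log2 fold change of 0.032 (SE 0.064, interval -0.11 to 0.17) was not called (adjusted p = 1, edgeR's exact test). *Keap1* counts are less certain because 10.9% of its exonic bases overlap an antisense gene, Gm16754, and how strand was used in counting is not given in the sources used here.

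*Gclc* and *Gclm* encode the catalytic and the modifier subunit of glutamate-cysteine ligase, the rate-limiting enzyme of glutathione synthesis. *Gclc* (chr9:77754535-77794485, plus strand) had 66.9, 68.4, 71.9 and 74.1 CPM in deleted mice against 69.8, 69.1, 69.0 and 73.2 CPM in controls. Both groups averaged 70.3 CPM, with SDs of 3.26 and 1.98. The interval of its log2 fold change, -0.12 to 0.12 around 0.00033 (SE 0.055), is among the narrowest of the 10 genes and corresponds to -8.14% to 8.93%. *Gclm* (chr3:122245557-122270732, plus strand) had 77.6, 75.4, 79.7 and 81.3 CPM in deleted mice and 76.2, 86.1, 90.8 and 86.7 CPM in controls. Control E5386 fell among the deleted mice, while the other 3 controls lay above all of them. The log2 fold change of -0.11 (SE 0.064, interval -0.26 to 0.028) was not called (adjusted p = 1 by edgeR's exact test and 0.786 by its quasi-likelihood test). Without controls E5386 and E5642 the *Gclm* log2 fold change was -0.18, with an unadjusted p of 0.0765 by edgeR's exact test. The quasi-likelihood test without these controls, added after seeing the data, gave an unadjusted p of 0.0404 (adjusted 0.999). With the muscle covariate described further on, the log2 fold change was -0.17 (unadjusted p = 0.0552 by the quasi-likelihood test). For *Gclm*, the exact permutation test over mice on log2(CPM + 1), two-sided over 70 splits, gave p = 0.114, with a difference of -0.11. With 1 mouse left out that difference ran from -0.0775 without E6578 (p = 0.257, exact permutation test) to -0.161 without E5386 (p = 0.0286, the smallest that 35 splits allow). Shared sequence makes *Gclm* counts less certain, since 4.58% of its 50-base words also occur in other transcripts, among them those of *Ppia*. Exonic overlaps with Gm17494, on the other strand, and the pseudogene Gm6061, on the same strand, came to 8.58% of its exonic bases.

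Recycling of oxidised thiol proteins was represented by *Txnrd1*, cytosolic thioredoxin reductase, and *Srxn1*, sulfiredoxin, which restores overoxidised peroxiredoxins. *Txnrd1* (chr10:82833951-82897712, plus strand) lay at 113, 110, 102 and 104 CPM in deleted mice and at 107, 108, 101 and 107 CPM in controls. All 8 mice fell in one narrow band. Its log2 fold change was 0.018 (SE 0.054, interval -0.10 to 0.14). *Srxn1* (chr2:152105516-152111376, plus strand), had 152, 174, 145 and 160 CPM in deleted mice and 146, 158, 163 and 143 CPM in controls. Mouse E5231 was highest, with the other 7 mice intermingled. The *Srxn1* log2 fold change was 0.051 (SE 0.073, interval -0.11 to 0.21), and both genes had an adjusted p of 1 by edgeR's exact test.

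Detoxification was represented by *Nqo1*, which reduces quinones, and *Gsta4*, a glutathione S-transferase acting on the lipid peroxidation product 4-hydroxynonenal. *Nqo1* (chr8:107388225-107403206, minus strand) gave 19.4, 20.2, 17.1 and 19.7 CPM with deletion and 20.9, 19.9, 18.2 and 18.8 CPM without. The extremes were deleted mouse E5248, lowest, and control E5386, highest. The log2 fold change was -0.024 (SE 0.079, interval -0.20 to 0.15). *Gsta4* (chr9:78182774-78209349, plus strand) gave 45.1, 55.2, 53.0 and 56.4 CPM in deleted mice and 48.3, 45.0, 50.6 and 49.9 CPM in controls. Of the deleted mice, 3 exceeded every control, and E1776 was level with the lowest control. With a log2 fold change of 0.11 (SE 0.079, interval -0.060 to 0.29), *Gsta4* was not called (adjusted p = 1 by edgeR's exact test, as for *Nqo1*, and 0.819 by the quasi-likelihood test). The exact permutation p of *Gsta4* was 0.229, two-sided, with a difference in log2(CPM + 1) of 0.108. With 1 mouse left out the difference ran from 0.0723 without E5568 (p = 0.457, exact permutation test) to 0.177 without E1776 (p = 0.0286, the smallest that 35 splits allow). Without controls E5386 and E5642 the *Gsta4* log2 fold change was 0.054.

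*Hmox1* (chr8:75093621-75100589, plus strand) encodes haem oxygenase 1, the inducible enzyme that opens haem to biliverdin, iron and carbon monoxide. It stood at 54.1, 51.4, 25.5 and 47.1 CPM in deleted mice and at 44.9, 51.3, 43.3 and 35.8 CPM in controls. Deleted mouse E5248 was far below the others, whereas the remaining deleted mice were in the upper part of the range. The coefficient of variation was 29.2% in deleted mice and 14.6% in controls. The log2 fold change was 0.023 with the widest interval of the 10 genes (SE 0.20, interval -0.43 to 0.48). In percent this interval is -25.8% to 39.3%, and with 4 mice per group differences of *Hmox1* inside it are not excluded. The mean of log2(CPM + 1) differed by -0.022, of opposite sign to the fold change. Without E5248 the log2 fold change was 0.22, and edgeR's exact test still did not call it (lowest adjusted p of 0.899 with any 1 mouse left out).

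*Osgin1* (chr8:119434124-119446256, plus strand), an oxidative stress-induced growth inhibitor, had the lowest level of the 10 genes. It was measured at 2.44, 2.78, 1.78 and 1.96 CPM in deleted mice and at 3.34, 2.93, 3.02 and 2.97 CPM in controls. All 4 deleted mice were below all 4 controls, with E5231 close to the lowest control and E5248 lowest. The level in deleted mice was 0.731 times that in controls, a log2 fold change of -0.45 (SE 0.16, interval -0.81 to -0.093). By edgeR's exact test p was 0.0244 before and 1 after adjustment, and by the quasi-likelihood test 0.0184 and 0.742. The exact permutation test over mice for *Osgin1* gave p = 0.0286, two-sided, which is the smallest that 70 splits allow. Its difference in log2(CPM + 1) was -0.337. With any of the 4 deleted mice left out, the exact permutation p was 0.0286, the smallest that 35 splits allow. It was 0.0571 when any of the 4 controls was left out, with differences of -0.306 to -0.352, and when CPM was scaled by library size alone, with a difference of -0.318. *Osgin1* was thus the one gene of 10 whose groups did not overlap, beside 3.88% of all tested genes, and 1.91% in the same direction.

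**Figure D1:**
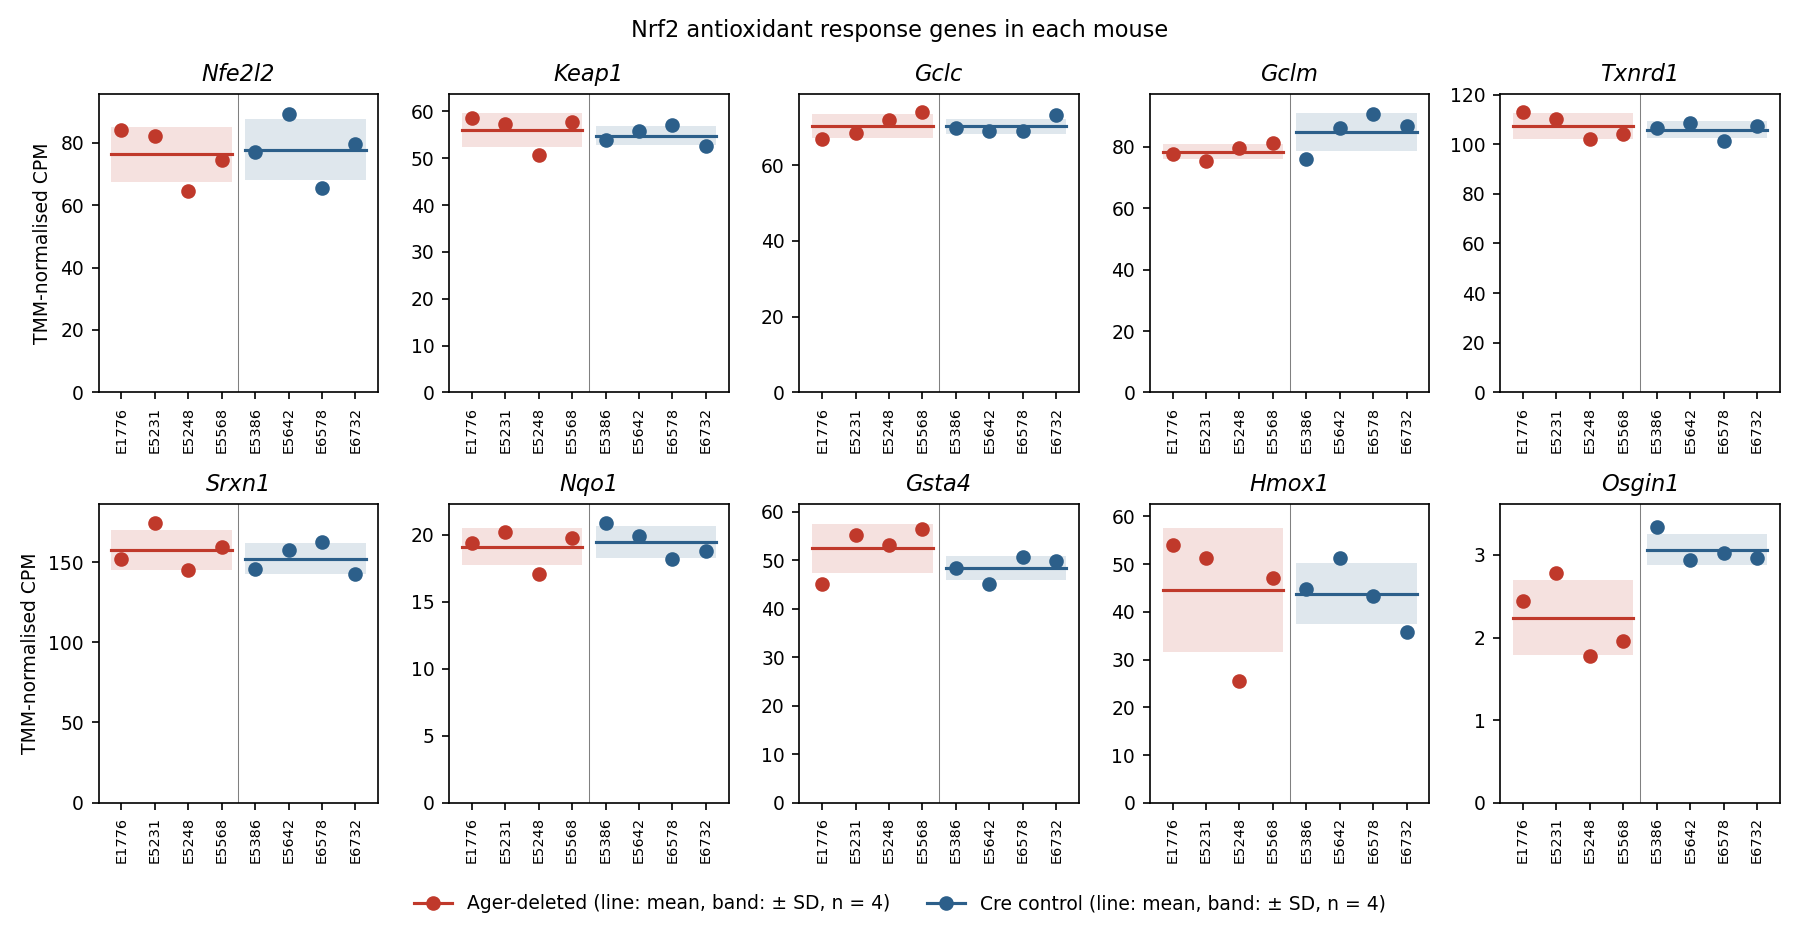
TMM-normalised CPM (y axes, each from 0) of the 10 Nrf2 antioxidant response genes in each of the 8 mice (x axes), with the group mean as a line and ± SD as a band (n = 4 per group). The groups overlap in every panel but that of Osgin1, where deleted mice lie at 1.78 to 2.78 CPM and controls at 2.93 to 3.34 CPM.

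Over the 10 genes together, 0 were called by edgeR's exact test, beside 0.0719% of all tested genes (14 of 19470, with 2 or 0.0103% higher and 12 or 0.0616% lower in deleted mice). The quasi-likelihood test also called 0 of them, beside 0.00514% of all genes, as did the exact test when common and tagwise dispersions were estimated, beside 0.401%. At an unadjusted p under 0.05 the count was 1 by the exact test, beside 4.26% of all genes, and 1 by the quasi-likelihood test, beside 6.71%, and in both it was *Osgin1*. The fold change was above 0 for 6 of the 10 genes and for 52.0% of all tested genes. The median log2 fold change was 0.0093 over the 10 genes and 0.0069 over all genes, and the median size of the fold change, regardless of sign, was 0.031 and 0.094. All tested genes included ones below 1 CPM in both groups, and the medians of size were not matched for counts. For 9 of the 10 genes the 95% interval included 0. For 8 of them, all but *Hmox1* and *Osgin1*, the interval stayed between -0.26 and 0.29, so that larger log2 differences lay outside it. These intervals rest on 4 mice per group, each mouse being 1 library.

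**Figure D2:**
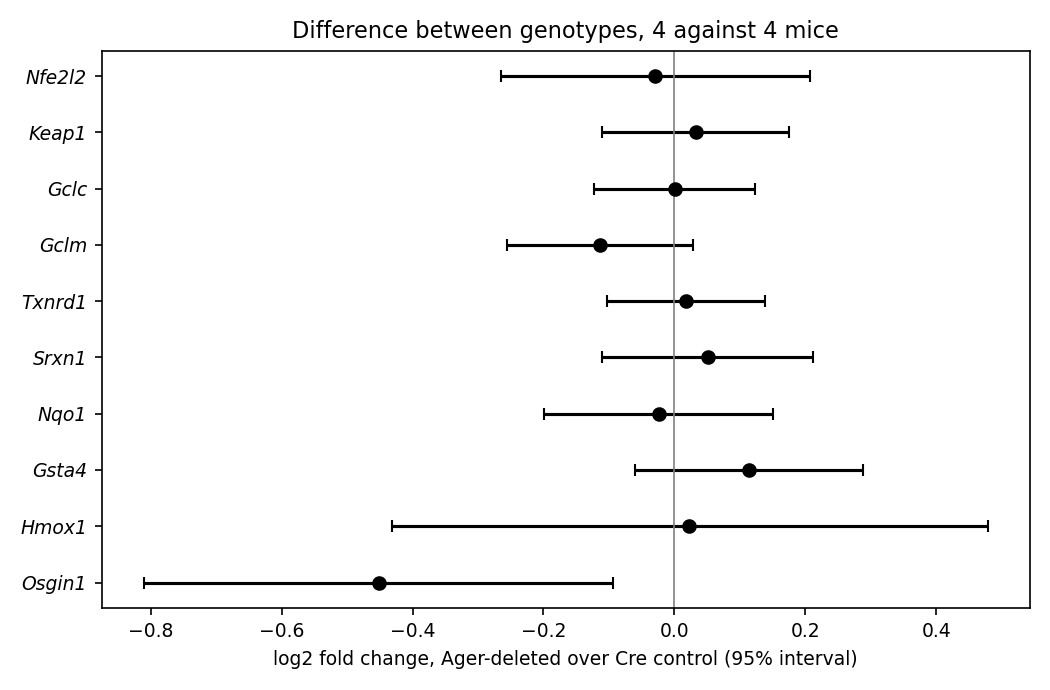
Log2 fold change of Ager-deleted over Cre control mice (x axis) for each of the 10 genes (y axis), as points with 95% confidence intervals from edgeR's quasi-likelihood fit of 4 against 4 mice. The interval includes 0 for 9 genes, is widest for Hmox1 (-0.43 to 0.48) and lies below 0 for Osgin1 (-0.81 to -0.093), whose adjusted p was 0.742.

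Levels between genes were compared as CPM per kilobase of merged exon. On this scale *Srxn1* was most abundant, with a mean of 54.9 over the 8 mice and a range of 50.6 to 61.8, followed by *Gsta4* at 39.9 (35.6 to 44.5). Neither range touched the next. *Hmox1* (25.2), *Nfe2l2* (20.3) and *Gclc* (18.7) came next, and neighbours among these overlapped between mice. *Txnrd1* (15.0), *Gclm* (12.99), *Nqo1* (12.4) and *Keap1* (11.8) formed a further run in which each overlapped its neighbour. *Osgin1*, at 0.992 with a range of 0.665 to 1.25, was below all others in every mouse. The merged length counts exons of every annotated isoform, so genes with long alternative exons are understated on this scale.

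Variation between mice was larger than the difference between genotypes for most of these genes, and the mouse farthest from the mean was not the same for every gene. Deleted mouse E5248 was the lowest of the 8 mice for 5 of the 10 genes (*Nfe2l2*, *Keap1*, *Hmox1*, *Nqo1* and *Osgin1*) and below the mean of the 8 mice for 8 of them. No other mouse was lowest for more than 1 gene, and E1776, also deleted, was the highest for 3 (*Keap1*, *Txnrd1* and *Hmox1*). On the log2 CPM scale, E5248 deviated from the mean of the 8 mice by -0.76 for *Hmox1*, -0.55 for *Osgin1* and -0.25 for *Nfe2l2*, but by 0.033 for *Gclc* and 0.076 for *Gsta4*. The same mouse had the lowest summed CPM of 12 microglial marker genes (1760, against 2160 to 3250 in the other 7 mice), of 12 disease-associated microglia genes (6150, against 8020 to 11500) and of 12 astrocyte markers (15600, against 17300 to 22100). Its sum of 12 oligodendrocyte markers was 22000, lowest by little, against 22100 to 24500 in the others. Its neuronal marker sum was 5320, within the 4020 to 5330 of the others. All genes of these 5 lists passed the filter and none was called. Deleted mouse E5568 was next lowest for the microglial, disease-associated microglial and astrocyte sums, at 2160, 8020 and 17300. The order of the deleted mice was the same for the microglial sum and for *Osgin1*, but that of the controls was not. The part of these marker levels in the values of E5248 and of *Osgin1* was not tested. Without E5248 the median log2 fold change of the 10 genes was 0.043, that of *Osgin1* was -0.36, and 0 of the 10 were called by edgeR's exact test.

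**Figure D3:**
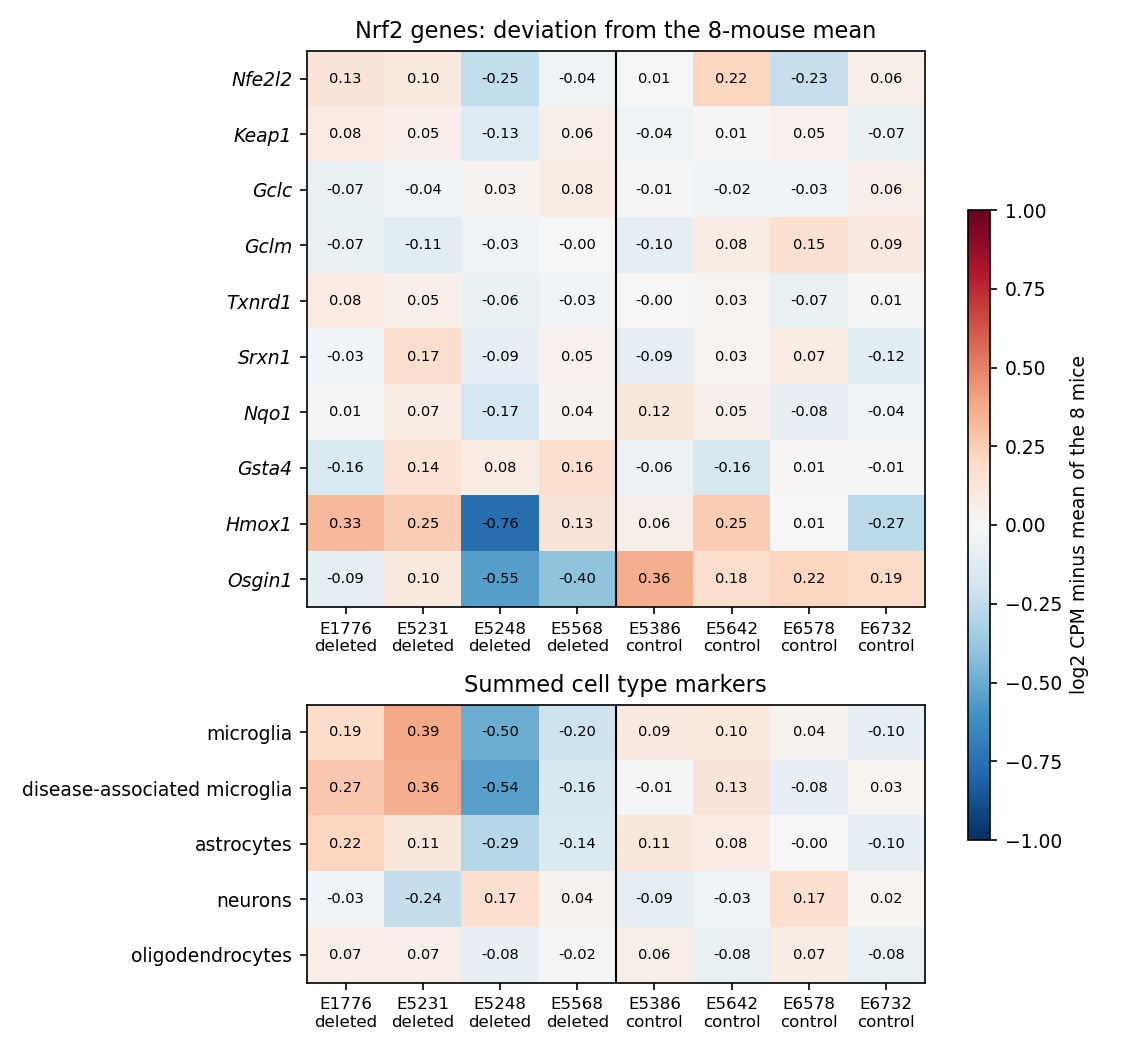
Deviation of each mouse (columns) from the mean of the 8 mice in log2 CPM (colour and printed value) for the 10 genes, and below them for the summed CPM of 5 cell type marker lists. The lowest cells of the upper panel are Hmox1 (-0.76) and Osgin1 (-0.55) in deleted mouse E5248. Its microglial, disease-associated microglial, astrocyte and, by little, oligodendrocyte sums are also the lowest.

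Among controls, E5386 and E5642 held RNA of skeletal muscle genes, with summed CPM of 1290 and 1910 against 82.5 to 113 in the other 6 mice, and 3 of the 19 tested muscle genes were called between genotypes. E5386 also had an adipocyte marker sum of 236, against 3.76 to 25.5 elsewhere. For the Nrf2 genes, leaving out E5386 and E5642 gave 0 calls, with *Osgin1* at -0.42 and *Nfe2l2* at 0.064, so the sign of *Nfe2l2* turned. The unadjusted p of *Osgin1* was then 0.0971 by edgeR's exact test. *Hmox1* was then at 0.165, against 0.023 with all mice. With the muscle level as a covariate in the quasi-likelihood fit, 0 of the 10 were called and *Hmox1* was at 0.153. *Osgin1* was then at -0.435, with an unadjusted p of 0.0662 by the quasi-likelihood test.

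The other genes of the pathway were described from 8 lists by role, holding 131 genes, of which 123 were tested. By edgeR's exact test 0 were called, 4 had an unadjusted p under 0.05, beside 4.26% of all tested genes, and the quasi-likelihood test called 0 with 5 under that unadjusted level, beside 6.71% of all tested genes. Neither count is a higher share than that over all genes. The fold change was above 0 for 68 of the 123, with a median of 0.0045 on the log2 scale. Within each list, the genes with the smallest p by the exact test are given.

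Partners and regulators of Nrf2 (18 genes) had a median log2 fold change of 0.012, with 0 called. *Cul3*, the scaffold of the ligase that Keap1 serves, was at 124 ± 17 CPM in deleted mice and 142 ± 7.0 CPM in controls (SD, n = 4 each), a log2 fold change of -0.19 (SE 0.090). *Mafg*, a small Maf partner that pairs with Nrf2 on DNA, was at 112 ± 8.7 and 104 ± 5.4 CPM. Glutathione synthesis and use (20 genes) had a median of 0.016 and 0 called. Its cystine transporter *Slc7a11* was at 18.2 ± 4.6 CPM with deletion and 24.4 ± 7.4 CPM without, and *Gss*, glutathione synthetase, at 35.6 ± 1.5 and 32.1 ± 2.7 CPM. Thioredoxin and peroxiredoxin genes (17) had a median of -0.0072, with the thioredoxin inhibitor *Txnip* at 74.0 ± 12 and 96.6 ± 36 CPM and the methionine sulfoxide reductase *Msrb1* at 45.2 ± 7.1 and 51.0 ± 7.1 CPM. The adjusted p was 1 for each of these 6 named genes by edgeR's exact test.

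Glutathione S-transferases (18 of 21 tested), the family to which *Gsta4* belongs, had a median log2 fold change of -0.060, with 0 called. Of these 18 genes, 3 had an unadjusted p under 0.05 in the exact test, beside 4.26% of all tested genes. Whether these shares differ was not tested. *Gstm2* stood at 1.63, 2.37, 2.51 and 2.79 CPM in deleted mice and at 2.54, 4.42, 4.03 and 5.25 CPM in controls. Control E5386 fell among the deleted mice and the other controls were above them. Its log2 fold change was -0.81 (SE 0.23), with an adjusted p of 0.395 by edgeR's exact test. Without E5386, *Gstm2* passed the threshold (log2 fold change -0.98, adjusted p = 0.0134 by the same test). E5386 also had the lowest summed CPM of 10 meningeal fibroblast markers (164, against 561 to 686 in the other controls and 273 to 475 in deleted mice) and of 8 Schwann cell markers (597, against 1420 to 1840 and 917 to 1720). All genes of both lists passed the filter, none was called, and their part in the *Gstm2* values was not tested. *Gsta3* stood at -0.95 (SE 0.43, adjusted p = 1, exact test in edgeR), with 13.9 CPM in control E6732 and 2.82 to 3.94 CPM in all other mice. E6732 also had the highest summed CPM of 12 liver markers (3160, against 1890 to 2850 in the other mice). Of these 12 markers, 6 were tested and 0 were called, and their part in the *Gsta3* values was not tested. The third of the 3 genes under that unadjusted level, *Mgst1*, a microsomal transferase, was named after its value was seen. It had a log2 fold change of -0.23 (SE 0.090). Copies within these transferase families are similar, so counts of *Gstm2* and *Gsta3* are uncertain where reads fit several copies.

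NADPH supply (8 genes) had a median of 0.040, with *Pgls* and *Tkt*, of the pentose phosphate pathway, at 0.13 (SE 0.11) and 0.078 (SE 0.077) on the log2 scale. In haem and iron handling (12 genes, median 0.034), *Slc40a1*, the iron exporter ferroportin, was at 11.6 ± 1.8 CPM in deleted mice and 14.8 ± 1.4 CPM in controls, a log2 fold change of -0.35 (SE 0.12, adjusted p = 0.907 by edgeR's exact test). *Ireb2*, iron regulatory protein 2, was at 70.4 ± 7.1 and 79.0 ± 3.0 CPM. Carbonyl and quinone detoxification and export (20 of 21 tested) had a median of 0.013. There the organic anion exporter *Abcc2* was at 5.08 CPM in control E6732 and 0.260 to 0.762 CPM in the other 7 mice, and the sulfotransferase *Sult1a1* was at 18.3 ± 2.0 and 26.4 ± 14 CPM. The part of the liver markers of E6732 in the *Abcc2* values was not tested. NADPH oxidase subunits (10 of 14 tested), which produce superoxide, had a median of -0.091, with *Cybb*, the phagocyte catalytic subunit, at 43.4 ± 11 and 51.0 ± 7.6 CPM and *Nox4* at 3.51 ± 1.0 and 4.03 ± 0.47 CPM. None of these 4 lists held a called gene, and the groups of 2 of the 123 genes, *Chac2* and *Mgst2*, did not overlap, beside 3.88% of all tested genes, both lower with deletion and both named after their values were seen.

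**Figure D4:**
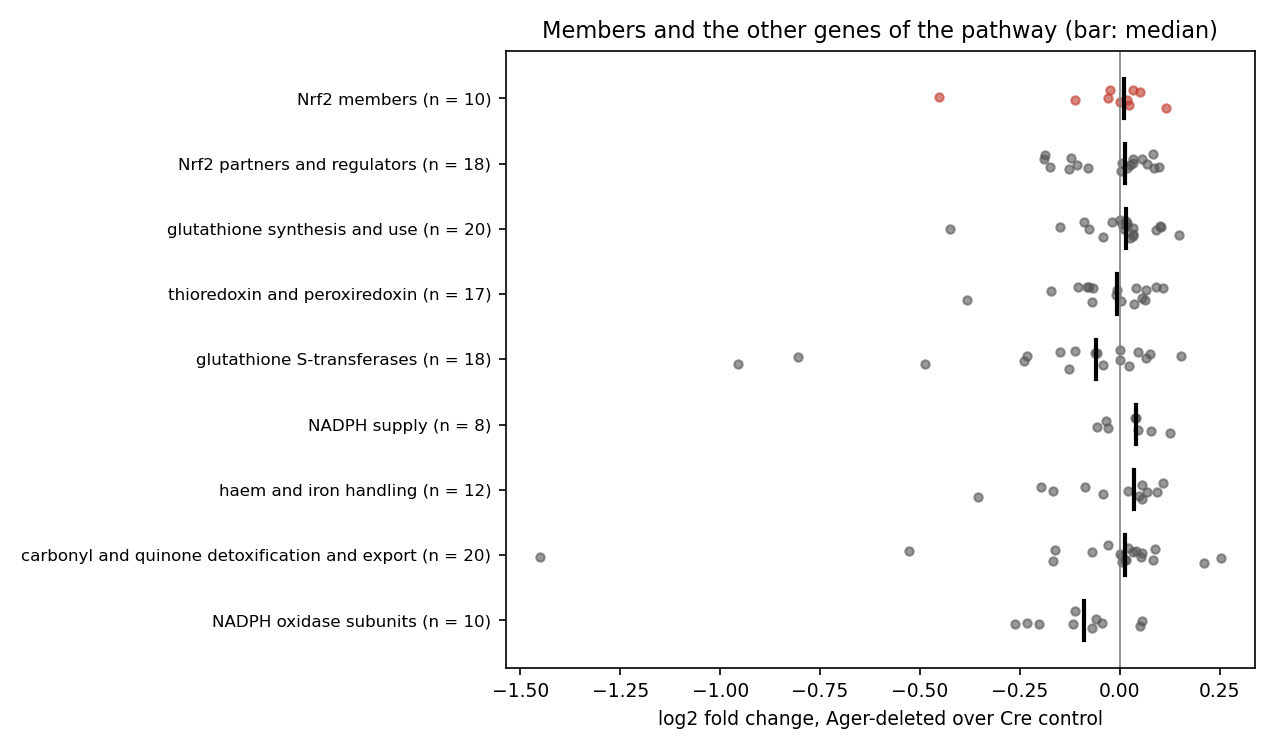
Log2 fold change of Ager-deleted over Cre control mice (x axis) for the 10 Nrf2 genes (red) and for the tested genes of 8 other pathway lists (grey), each point 1 gene and each bar the median of its list. The medians lie between -0.091 for NADPH oxidase subunits and 0.040 for NADPH supply, and the point farthest from 0 is Abcc2 at -1.45, where 1 control mouse was high.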

How the data were processed

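RNA of lumbar spinal cord from 8 mice was analysed, 4 per genotype, each library being 1 mouse by its identifier in the labels. The authors trimmed read pairs (Trimmomatic 0.36), aligned them to mm10 with STAR 2.7.3a, and deposited raw counts per gene from featureCounts (Subread 1.6.3), without pooling. A deposited table of log2 values, made by the authors as TMM-normalised CPM, served only to check the filter and scaling. It held the same 19470 genes, with differences of at most 4.78e-06. Columns of values not matched to a mouse numbered 0.

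Counts were filtered with filterByExpr (minimum count 10), scaled by TMM and tested in edgeR 4.0.16 (R 4.3.3) by the exact test, with Benjamini-Hochberg adjustment and a threshold of 0.05. The quasi-likelihood test gave standard errors and 95% intervals. Permutation tests used log2(CPM + 1). No pair of the 28 pairs of libraries agreed within sampling noise. Coordinates and exons came from GENCODE M21 on GRCm38, an annotation release other than that used for counting, and promoter windows from RefSeq (GRCm38.p6). *Hmox1*, *Gclc* and *Gsta4* had no promoter entry there. The procedure was tested on simulated counts with planted changes larger than those of the 10 genes. That run does not bear on changes as small as theirs.

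The 10 genes and all lists were chosen with earlier results of these data known. Named genes were all 10, *Ager*, and in each of the 8 pathway lists the called genes plus the 2 with the smallest p by the exact test. Other genes were named after their values were seen, as stated beside them. Alternatives were other tests (DESeq2 1.42.0, limma 3.58.1), scalings and filters, mice left out, and a muscle covariate. The 2 alternatives that left out 3 controls, or combined the quasi-likelihood test with leaving out E5386 and E5642, were added after seeing the data.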

Additional observations from a re-analysis of the deposited data

Results flagged for a closer look

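No group of any of the 10 Nrf2 genes held a mouse that stood apart by Dixon's criterion at the 95% level, the nearest being *Keap1* in deleted mouse E5248, whose gap to the next mouse was 0.827 of the range, just under the critical value for 4 mice. Among the other named pathway genes, 4 groups did, of 52 tested in all, 20 of them groups of the 10 Nrf2 genes, and chance alone marks about 1 group in 20. *Cul3* was at 132 CPM in control E5386 and at 144 to 146 CPM in the other controls. *Ireb2* was at 74.6 CPM in the same mouse and at 80.2 to 81.1 CPM in the other controls. *Gsta3* was at 13.9 CPM in control E6732, against 3.33 to 3.94 CPM in the remaining controls. *Abcc2* was at 5.08 CPM in E6732, against 0.260 to 0.547 CPM.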

How the results depend on the processing

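Of the 20 alternatives, the one without E5386, E5642 and E6732 left E6578 as the only control, assumed to vary like the deleted mice, so its values rest on 1 library and bear on no statement of stability. In the other 19, none of the 10 Nrf2 genes was called, *Gclm* and *Osgin1* stayed below 0 and *Gsta4* stayed above 0. The count of all called genes, 14, became 1 by the quasi-likelihood test (also without E5386 and E5642, and with the muscle covariate) and by limma-voom, 78 with common and tagwise dispersions, 25 by DESeq2, 8 with at least 1 CPM in 4 mice, 67 without E5386 and E5642, 6 without E5386, E5642 and E6732, and 3 (without E5231) to 98 (without E6578) with 1 mouse left out. Of the other pathway genes, edgeR's exact test called 1 without E5386 and E5642 (*Gstm2*) and 0 to 1 with 1 mouse left out. The quasi-likelihood test called 0 without E5386 and E5642, and 0 with the muscle covariate. Against the single control E6578, *Sult1a1* had a log2 fold change of -0.836, at 32.7 CPM in that mouse and 11.6 to 42.2 CPM in the other controls. The cause of these shifts was not tested.

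The remaining 7 genes, whose log2 fold changes were between -0.029 and 0.051, changed sign in places. Without E5386 and E5642, by either edgeR test, the log2 fold change was 0.064 for *Nfe2l2*, 0.042 for *Nqo1* and -0.024 for *Gclc*. With the muscle covariate these were 0.078, 0.047 and -0.0099. Against E6578 alone, the lowest control for *Nfe2l2*, that gene was at 0.22, *Nqo1* at 0.070, *Keap1* at -0.028 and *Srxn1* at -0.047. Limma-voom gave -0.017 for *Hmox1* and -0.00035 for *Gclc*, and *Gclc* was at -0.0045 by DESeq2, -0.0043 with RLE factors and -0.0024 with at least 1 CPM in 4 mice. *Nqo1* was at 0.00076 with library size alone. As differences in log2(CPM + 1) with library size alone, *Hmox1* was at 0.0033, *Nqo1* at 0.00099 and *Gclc* at 0.026.

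With 1 mouse left out, the log2 fold change ran from -0.10 to 0.043 for *Nfe2l2*, -0.084 to 0.22 for *Hmox1*, -0.053 to 0.026 for *Nqo1*, -0.025 to 0.024 for *Gclc* and -0.0073 to 0.042 for *Txnrd1*. *Srxn1* ran from 1.5e-05 without E5231 to 0.090 without E5248 and *Keap1* from 0.010 without E1776 to 0.079 without E5248. For the first 5 genes the ranges in log2(CPM + 1) were -0.11 to 0.049, -0.13 to 0.22, -0.053 to 0.026, -0.025 to 0.023 and -0.0077 to 0.041. For *Osgin1* the log2 fold change ran from -0.57 without E5231 to -0.36 without E5248, with unadjusted p from 0.00763 to 0.0971 and adjusted p from 0.544 to 1 over the 19 alternatives with at least 2 controls. No paired analysis was possible because the labels name mice by identifiers and give no replicate numbers shared between genotypes. Depth limits *Osgin1* most, at 63 to 122 counts per mouse.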
